A study of Mus musculus with 4 samples.

Results

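The genomic stretch described here is the end of the Shh tile that holds Cnpy1: the non-control probes of a custom Agilent tiling array that lie within chromosome 5: 28400001-28640000 (mm9), up to the start of Rbm33. It holds 1783 of the 48316 non-control probes of the array and 1783 of the 12390 in the Shh tile (probes no more than 50 kb from their neighbour form 1 tile, and each probe stands for the 60 bases it covers). The first probe starts at 28466879 and the last ends at 28639946, with 60-base probes set end to end over most of the length (median spacing 60 bases) and a largest gap between 28548972 and 28555045, inside Cnpy1, which leaves 34 windows of 5 kb with at least 5 probes. The array read nuclear RNA of ESC, the mouse 46c embryonic stem cell line grown in GMEM with supplement, and of NPC, neural progenitor cells derived from the same line with the N2B27 protocol, with 2 arrays per group. 46c carries a green fluorescent reporter in Sox1, an early gene of the neural lineage, so both groups carry it, and all values come from 1 line. RNA was taken with TRIzol from native chromatin of nuclei prepared without RNase, amplified as whole transcriptome and labelled with Cy3 by random priming, so signal from the 2 strands of a region cannot be told apart. Separate cultures for the arrays of a group are not stated in the labels, so p-values cover just the spread between these arrays, which may be technical. Positions on mm9 of genes that define either cell type were not used here, so the labels were not checked against markers.

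Cnpy1 encodes canopy FGF signalling regulator 1, a small protein of the secretory pathway whose zebrafish relative promotes FGF signalling at the boundary between midbrain and hindbrain. En2, its neighbour, encodes an Engrailed homeodomain transcription factor that patterns the midbrain and anterior hindbrain. Nuclear RNA holds unspliced transcripts and non-coding RNA as well as messages on their way out, so introns and sequence between genes can give signal. Cnpy1 was taken at its stated position of about 28527000-28573000 (mm9), which is rounded and was not matched to an annotation of that build. In the RefSeq gene table of GRCm38 the genes run in the order En2, the lncRNA genes Gm52808, Gm42242 and Gm35395, Cnpy1, the lncRNA genes Gm35524 and Gm35602, and Rbm33. None of these was placed on mm9 except Cnpy1, and no signal is assigned to a gene other than by the stated Cnpy1 position. Cnpy1 lies on the minus strand of GRCm38 and the order of En2, Cnpy1 and Rbm33 is the same, so its lower coordinate end is taken here as its 3′ end.

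RefSeq gives Cnpy1 a pair of transcription starts, and both promoter windows (250 bases before to 50 after the start, 5′ to 3′, GRCm38.p6, minus strand, with every CG in capitals) are shown because the signal described below is highest in the 3′ part of the gene. The first lies at chr5:28245739-28246038 and the second at chr5:28210119-28210418:
Cnpy1 start 1: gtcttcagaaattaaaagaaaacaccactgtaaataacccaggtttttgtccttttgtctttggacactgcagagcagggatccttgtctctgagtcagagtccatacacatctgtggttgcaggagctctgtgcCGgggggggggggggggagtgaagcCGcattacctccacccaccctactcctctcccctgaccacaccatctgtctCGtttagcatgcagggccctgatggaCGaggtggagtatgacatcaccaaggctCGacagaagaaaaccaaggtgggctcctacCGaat
Cnpy1 start 2: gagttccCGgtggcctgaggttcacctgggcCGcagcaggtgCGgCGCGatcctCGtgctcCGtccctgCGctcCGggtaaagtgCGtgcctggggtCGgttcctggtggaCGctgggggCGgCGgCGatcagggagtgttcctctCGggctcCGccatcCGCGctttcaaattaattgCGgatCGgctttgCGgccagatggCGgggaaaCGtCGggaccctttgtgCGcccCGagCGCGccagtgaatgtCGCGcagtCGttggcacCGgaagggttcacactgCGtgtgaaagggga
The first window holds 6 CG dinucleotides and 53.0% G and C, and the second 34 and 66.3%. The median of the 32851 promoter windows in the same table was 7 CG, and 56.4% of them held at least 6 and 7.73% at least 34. Neither window holds TATAAA on either strand, which 13.6% of the windows do. In GRCm38 the starts lie 35.6 kb apart, and the second lies 9.35 kb from the 3′ end of the gene.

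Levels are log2 intensity minus the 75th percentile of each array, taken over probes that passed the scanner's mark for well above background on every array, and windows are means over the probes of 5 kb. The scanner program replaces low intensity by a floor, which lay at -5.75 in ESC 1, -5.86 in ESC 2, -6.06 in NPC 1 and -6.33 in NPC 2 on this scale, so a probe at the floor on every array differs by -0.39 between the groups without any signal. In the Cnpy1 side region 27.3% to 32.3% of the probes lay at the floor of their array. Negative control spots were well above background at 1.36% to 2.42%, and no spot of the region was saturated. A change on this scale therefore has to be read beside the shift of the floor, the share of probes above background, and the values of the rest of the tile.

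Signal over the Cnpy1 side region was lower in NPC by about as much as over the rest of the Shh tile. The mean over its 34 windows was -3.50 in ESC 1 and -3.60 in ESC 2, against -4.06 in NPC 1 and -4.23 in NPC 2. Both NPC arrays lay below both ESC arrays, and the difference was -0.59 (exact permutation test over arrays, two-sided p = 0.333, the smallest that 2 against 2 arrays can give). Over probes, the region stood 0.18 above the rest of the tile in ESC 1, at -0.02 in ESC 2, and at 0.04 and 0.03 in NPC 1 and NPC 2, so these differences overlapped between the groups. In ESC 47.0% ± 0.50 of its probes were well above background, against 42.7% ± 0.55 in NPC (SD over 2 arrays), and the share for the rest of the tile was 44.8% ± 2.67 in ESC and 40.9% ± 1.29 in NPC. Over the whole array the order was the opposite, with 42.5% and 44.6% of the probes above background in ESC and 54.1% and 54.3% in NPC. These are bulk samples, in which fewer cells with a transcript and less RNA per cell cannot be told apart.

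In the limma fit over all 964 windows of the array, 20 of the 34 windows were called lower in NPC at a Benjamini-Hochberg adjusted p under 0.05 and 0 were called higher, with 28 and 0 at an unadjusted p under 0.05. Lower calls made up 29.5% of all windows of the array and higher calls 22%, and in the rest of the tile 111 of 227 windows were called lower and 0 higher. The median change of the 34 windows was -0.55, against -0.53 in the rest of the tile and -0.34 over the array. All 34 changes were below 0 with the scaling used here, but 20 of 34 were when the array medians of the control spots named SRN set the scale. The number of calls depended on the scaling. When the chromosome 12 tile was kept out of the percentile 0 were called lower (8 at an unadjusted p under 0.05), against 64 of 964 over the array. With a common floor 9 were called lower, against 124 over the array. Without ESC 1 or ESC 2, 0 were called (4 and 6 at an unadjusted p under 0.05), but the mean change stayed at -0.54 and -0.65, in fits whose spread comes from the NPC pair alone with the lone ESC array assumed to vary like it.

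**Figure D1:**
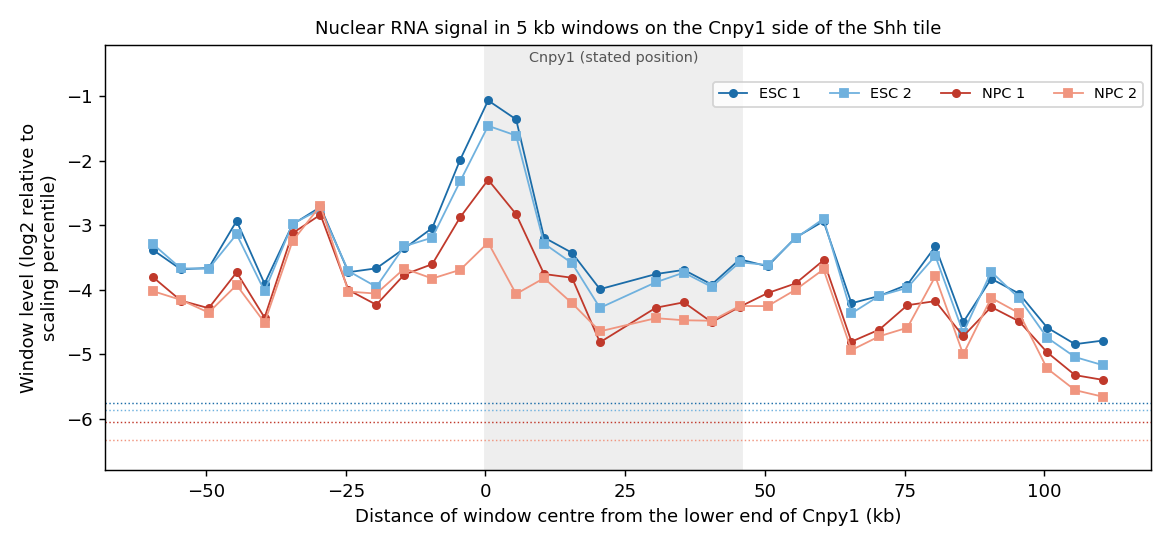
Level of each 5 kb window (log2 relative to the scaling percentile) on the 4 arrays, against the distance of the window centre from the lower, 3′ end of Cnpy1; grey marks the stated position of Cnpy1 and dotted lines the floor of each array. The ESC arrays rise to -1.07 and -1.46 at the 3′ end of Cnpy1, and the NPC arrays reach -2.30 and -3.27 there.

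The highest signal of the region in ESC lay at the 3′ end of Cnpy1. The windows from 28515001 to 28535000, which cover the 3′ end of Cnpy1 and the sequence beyond it, formed the only stretch of the region, a stretch being at least 3 adjacent windows with at least 50% of the probes well above background in either group. Over its 237 probes the level was -1.79 in ESC 1, -2.08 in ESC 2, -2.85 in NPC 1 and -3.69 in NPC 2. The ESC arrays lay close together and both above the NPC arrays, and NPC 2 lay well below NPC 1. The change was -1.34 (SE 0.30, limma over 41 stretches, adjusted p = 0.0139), a level 2.52-fold higher in ESC, where the median change of all windows was -0.34. Among the 41 stretches this fall ranked 3 by size. The lowest change of a single window was -1.96 in the region, -2.11 in the rest of the tile and -2.90 over the array. Of the 41 stretches, 41.5% were called lower and 24.4% higher. The change of this stretch was below 0 under every scaling run, though it was only -0.62 with normexp and quantile normalization and -0.81 with the SRN medians. The call was lost with chromosome 12 probes kept out of the percentile (change -1.12, adjusted p = 0.0584). It was also lost without ESC 1 (change -1.19, adjusted p = 0.0944), where the NPC pair alone gives the spread.

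The share of probes well above background, which no scaling between arrays touches, was also lower in NPC in the stretch, without a test of its own. It was 78.8% in ESC 1 and 78.5% in ESC 2, against 70.8% in NPC 1 and 55.6% in NPC 2. In the 1546 probes of the region outside the stretch it was 41.8% and 42.6% in ESC, with 37.9% and 41.2% in NPC. Most of the stretch was thus still above background in NPC, at a lower level.

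Measured within each array, the stretch stood above the rest of the region by 1.89 in ESC 1, 1.67 in ESC 2, 1.32 in NPC 1 and 0.56 in NPC 2. All 4 arrays showed the stretch above its surroundings, and the step was smaller in both NPC arrays, by 0.84 on average (exact permutation p = 0.333, the smallest possible). Without the stretch, the region minus the rest of the tile came to -0.07 and -0.24 for the ESC arrays, against -0.14 and -0.04 for the NPC arrays, a difference of 0.07 with overlapping groups. Its distance to the array floor was 2.08 and 2.12 in ESC, with 1.89 and 2.09 in NPC, while that of the stretch was 3.97 and 3.78 in ESC, with 3.21 and 2.64 in NPC.

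Along the stretch the changes were larger toward the body of Cnpy1, though the differences between its windows were not tested. The window from 28515001 was at -3.04 and -3.19 in ESC and -3.60 and -3.83 in NPC, giving a change of -0.60 (SE 0.15). The window from 28520001 was at -1.98 and -2.32 in ESC and -2.88 and -3.69 in NPC, giving a change of -1.13 (SE 0.32). The window from 28525001, which holds the stated 3′ end of Cnpy1, was at -1.07 and -1.46 in ESC and -2.30 and -3.27 in NPC, giving a change of -1.52 (SE 0.37). The window from 28530001, inside Cnpy1, was at -1.36 and -1.61 in ESC and -2.83 and -4.07 in NPC, giving a change of -1.96 (SE 0.44), or 3.9-fold. No array of one group overlapped the other group in any of the 4. NPC lay below ESC without overlap in 97.1% of the region's windows, 90.3% in the rest of the tile and 57.8% over the array. The adjusted p of the 4 windows in limma lay between 0.0249 and 0.0410. The last 3 are also the highest windows of the region in ESC, and in NPC they rank among its 5 highest. The share of probes above background in the window from 28530001 was 82.5% and 86.0% in ESC against 68.4% and 45.6% in NPC.

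**Figure D2:**
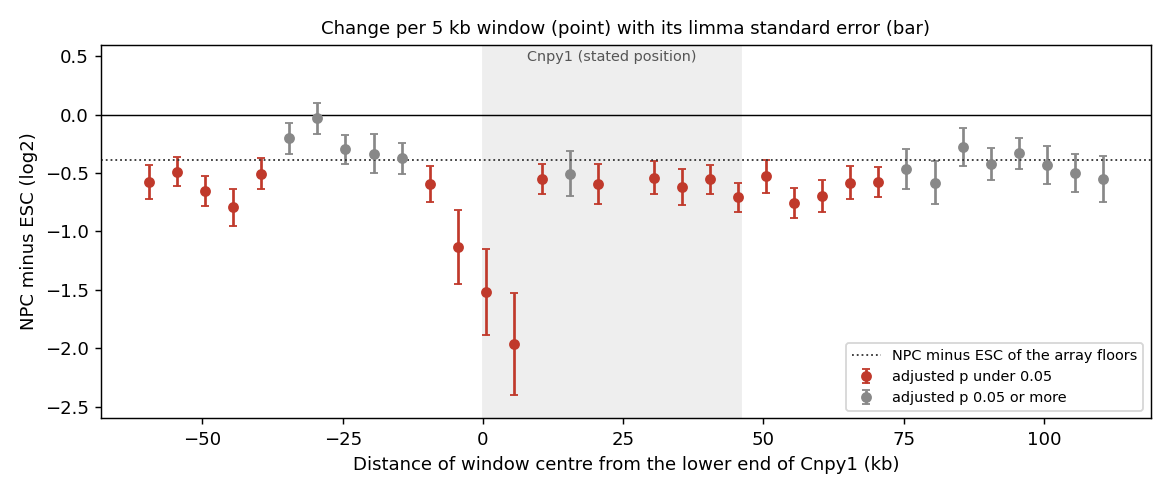
NPC minus ESC of each 5 kb window (log2, point) with its limma standard error (bar), against the distance from the 3′ end of Cnpy1; red windows have an adjusted p under 0.05, the dotted line marks the difference between the array floors (-0.39) and grey the stated Cnpy1. Outside the stretch the changes lie between -0.79 and -0.03, and within it they reach -1.96.

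At 1 kb the signal in ESC had a sharp edge inside Cnpy1. Windows of 1 kb with at least 50% of the probes above background on both ESC arrays ran without a break from 28516001 to 28537000, that is from 11 kb beyond the 3′ end of the gene to 10 kb inside it. The next window, from 28537001, had 18.2% and 9.09% of its probes above background in ESC and a level of -4.81 and -5.00, against -1.95 and -1.80 in the window before it. The edge thus fell 10 kb from the stated 3′ end on mm9, and the second RefSeq start lies 9.35 kb from that end on GRCm38. These distances come from different assemblies and the first uses a rounded end, so they are given side by side and the start was not placed on the probes.

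The size of the difference varied along this run, whose limits were set after the values were seen. The pair of windows next to the edge was measured above background in both groups. The window from 28536001 was at -1.95 and -1.80 in ESC and -2.28 and -1.74 in NPC, which overlap, with 75% of the probes above background on both ESC arrays and 75% and 83.3% in NPC. The window from 28535001 was at -0.75 and -1.35 in ESC and -1.74 and -2.19 in NPC (limma adjusted p = 0.0725). The largest fall of the 162 windows of 1 kb came from 28531001, at -1.28 and -1.37 in ESC and -3.59 and -4.71 in NPC (7 probes, 7.07-fold, adjusted p = 0.00392). The window from 28529001 had the highest NPC level inside the gene, -1.01 and -1.39 against -0.28 and -0.11 in ESC, and all of its probes were above background on both NPC arrays. In the fit over 4399 windows of 1 kb, 21 of 162 in the region were called lower and 0 higher, against 8.66% called lower and 19% higher over the array.

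**Figure D3:**
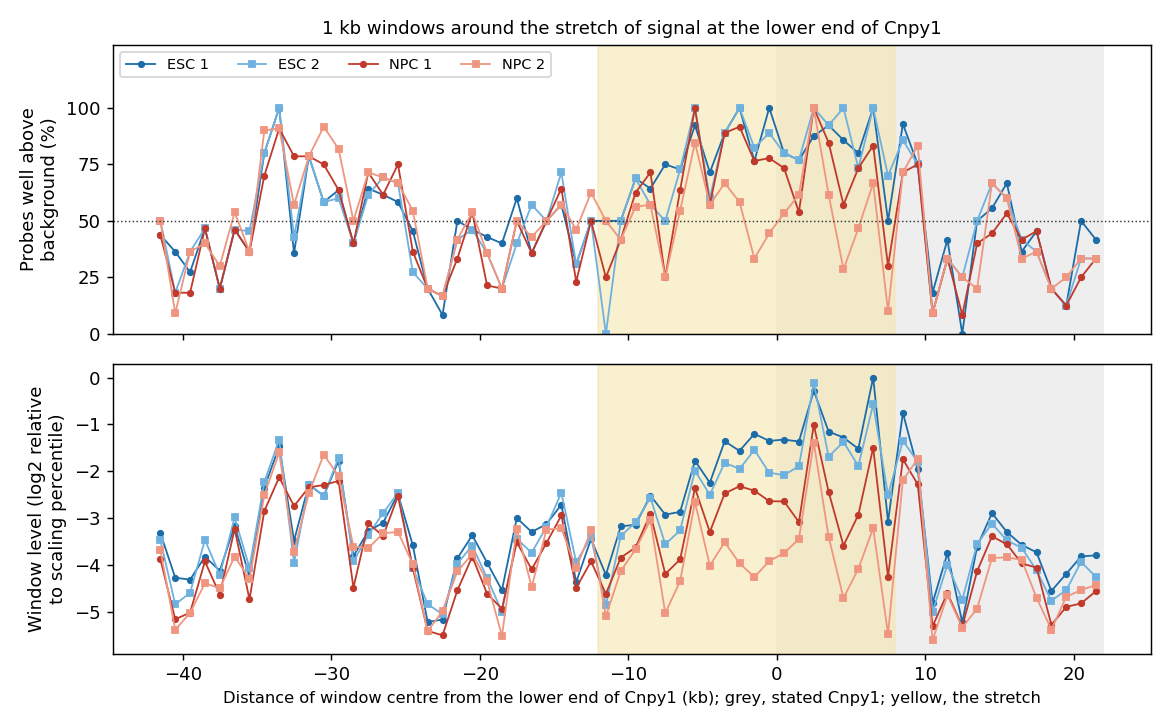
Share of probes well above background (upper panel, %) and level (lower panel, log2 relative to the scaling percentile) in 1 kb windows on the 4 arrays, against the distance from the 3′ end of Cnpy1; yellow marks the stretch, grey the stated Cnpy1 and the dotted line 50%. The NPC 2 curve lies lowest over most of the stretch, and all 4 arrays drop together 10 kb inside the gene.

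The rest of Cnpy1 gave less signal in both groups. The 349 probes of the gene outside the stretch had a level of -3.70 ± 0.08 in ESC and -4.26 ± 0.08 in NPC, with 41.1% and 41.4% of them above background in ESC and 34.4% and 36.8% in NPC. The 101 probes of the gene inside the stretch stood at -1.18 and -1.48 in ESC and -2.55 and -3.51 in NPC. Within each array, the part outside the stretch minus the rest of the tile was -0.04 and -0.24 in ESC, with -0.18 and -0.11 in NPC, and the groups overlapped. The window from 28570001, which holds the stated 5′ end of Cnpy1, was at -3.53 and -3.58 in ESC and -4.27 and -4.25 in NPC, giving a change of -0.71 (SE 0.13, limma adjusted p = 0.0148), with 46.6% of its probes above background in ESC and 37.7% in NPC.

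Signal also lay beyond the 3′ end of the gene, in sequence not placed in Cnpy1. The 136 probes of the stretch below 28527000 had a level of -2.24 and -2.52 in ESC and -3.07 and -3.82 in NPC. In that part 76.3% and 72.8% of the probes were above background in ESC and 69.6% and 54.1% in NPC. The difference was -1.07 there and -1.70 in the part inside Cnpy1. In both parts the arrays of the groups did not overlap, as in 97.1% of the region's 5 kb windows.

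A pair of adjacent windows nearer the first probe of the tile had the smallest changes of the 34, and they were joined after their values were seen. Over the 120 probes from 28490001 to 28500000 the ESC arrays stood at -2.85 and -2.87 and the NPC arrays at -2.98 and -2.97, which differ by -0.11. Of these probes 60.5% ± 0.72 passed the mark in ESC, against 67.9% ± 2.95 in NPC. At 1 kb the changes within the pair went in both directions. They ran from -0.47 in the window from 28493001 (limma adjusted p = 0.227) to 0.56 in that from 28496001 (adjusted p = 0.186). The window from 28495001 changed by -0.03 (SE 0.13, limma adjusted p = 0.847) and that from 28490001 by -0.20 (SE 0.13, adjusted p = 0.229), and both changes turned above 0 with either SRN scaling and with chromosome 12 probes kept out of the percentile, the first also with a common floor, with the median over probes and without NPC 1. In the other direction, the window from 28490001 was called lower with the percentile over every probe (-0.59, adjusted p = 0.0116), the median over windows (-0.41, 0.0479) and the authors' deposited values (-0.49, 0.0483). Within each array these windows stood above the rest of the region outside the stretch by 0.89 and 0.95 in ESC and by 1.29 and 1.39 in NPC. They lay below the Cnpy1 stretch by 1.07 and 0.79 in ESC and 0.13 in NPC 1, and above it by 0.72 in NPC 2. Centred on the region, the change of the window from 28495001 was 0.48 (SE 0.13, adjusted p = 0.0510), the highest of the 34.

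The remaining windows had smaller changes. Outside the stretch 16 of 30 windows were called lower, and their changes lay between -0.79 and -0.03 with a median of -0.53. The largest came from 28480001, at -2.93 and -3.14 in ESC and -3.73 and -3.93 in NPC, giving a change of -0.79 (SE 0.16). On the Rbm33 side of Cnpy1 the window from 28580001 was at -3.20 ± 0.01 in ESC and -3.95 ± 0.07 in NPC, and that from 28585001 at -2.94 and -2.90 in ESC and -3.54 and -3.68 in NPC, changes of -0.75 (SE 0.13) and -0.70 (SE 0.13). The first window of the tile, from 28465001, was at -3.38 and -3.29 in ESC and -3.80 and -4.02 in NPC, giving a change of -0.58 (SE 0.15), and those from 28475001 and, inside Cnpy1, 28560001 changed by -0.65 (SE 0.13) and -0.62 (SE 0.16). With a common floor the lower calls numbered 9, against 124 of the 964 windows of the array. These 9 held all 4 windows of the stretch and 5 outside it, namely those from 28475001, 28480001, 28570001, 28580001 and 28585001.

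Toward Rbm33 the signal faded into background. The last window, from 28635001, had 11.8% of its probes above background on both ESC arrays and 8.82% and 14.7% in NPC, and its levels of -4.79 and -5.17 in ESC and -5.40 and -5.66 in NPC lay within 1 log2 unit of the array floors. The 625 probes between Cnpy1 and the region's end stood below the rest of the tile by 0.32 and 0.48 in ESC and by 0.40 and 0.34 in NPC, so the groups overlapped. The 708 probes before Cnpy1 stood above it by 0.41 and 0.22 in ESC and by 0.33 and 0.34 in NPC, again with overlap. Over Cnpy1 itself the ESC arrays gave 0.51 and 0.27 and the NPC arrays 0.20 and 0.07, a difference of -0.26 that separated the groups (exact permutation p = 0.333, the smallest possible).

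Single probes were tested in the same way. Of 1768 probes tested in the region, 35 were called lower and 3 higher in NPC in the limma fit over 47900 probes, against 1.58% called lower and 10.8% higher over the array. Of the 35, 14 lay among the 232 tested probes of the stretch, 5 before it and 16 after it. Above background on both ESC arrays were 20 of the 35, and 9 were above background on no array, so their calls were made near the floor. Of the 35, 29 were above background on no NPC array, and 13 lay at the floor on both NPC arrays. For most of these calls the NPC level was thus not measured above background. With an array left out, the numbers of lower and of higher calls moved in both directions. The spread in such a fit comes from the pair of the other group alone, so these counts are not read as a result.

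The probes above background on all 4 arrays avoid the floor. In the stretch 117 probes met this, with a median change of -0.93 and 111 of them, or 94.9%, below 0. In the rest of the region 446 met it, with a median of -0.35, against -0.39 over 3114 such probes in the rest of the tile and -0.18 over 15111 on the array. The share of such probes below 0 was 81.4% in the rest of the region, 77.2% in the rest of the tile and 60.7% on the array. Above background on both ESC arrays and on no NPC array were 49 of the 1783 probes of the region, or 2.75%, against 2.17% in the rest of the tile and 1.48% on the array. The reverse held for 13 probes, or 0.73%, against 0.86% and 10.8%.

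Probe Ch_844759_0028945, at 28528467 inside Cnpy1, was at -1.62 and -1.47 in ESC and at the floor on both NPC arrays. At this scaling it was at least 5-fold higher in ESC (limma adjusted p = 0.0104). The NPC level for this bound was the lowest signal of any probe well above background on each array. Its NPC values are the floors, so the p-value covers no spread of NPC signal. The same limit holds for every probe at the floor on both arrays of a group. With normexp the change of this probe was -1.16, below the bound. Probes Ch_844759_0028985, at 28531520, and Ch_844759_0028930, at 28527326, also in the stretch and not well above background in NPC, were at least 4.36-fold and 3.45-fold higher in ESC. The call of Ch_844759_0028930 was lost with normexp (change -0.86, limma adjusted p = 0.127), a common floor (-3.53, 0.0921) and the authors' deposited values (-1.29, 0.183). With normexp and with the authors' values its change was also below the bound of 3.45-fold. Probe Ch_844759_0028987, at 28531839, was at 0.47 and -0.78 in ESC and -3.48 and -4.58 in NPC, where 1 of the arrays was above background. Outside the stretch, probe Ch_844759_0028356, at 28477740, was at -1.43 and -0.80 in ESC and -6.06 and -5.26 in NPC, and at least 6.73-fold higher in ESC. Probe Ch_844759_0029341, at 28570455 near the 5′ end of Cnpy1, was at -1.64 and -2.04 in ESC and at the floor in NPC, and at least 4.07-fold higher in ESC. Probes Ch_844759_0029192, at 28555782 inside Cnpy1, and Ch_844759_0029494, at 28581054, were at least 3.06-fold and 2.09-fold higher in ESC. All these bounds belong to the scaling used here. With normexp every lower probe given a bound changed by less than it, from -1.25 for Ch_844759_0028356 to -0.56 for Ch_844759_0029494. The call of Ch_844759_0029192 was lost in 5 of 17 alternatives, that of Ch_844759_0028987 in 2 and that of Ch_844759_0028356 in 1. Of these 8 lower probes, Ch_844759_0028985 and Ch_844759_0028987 had a called probe next to them, the same one for both, and the others had none.

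All 3 probes called higher in NPC lay in or just beyond this pair of windows with the smallest changes. Probe Ch_844759_0028546, at 28494281, was at -3.74 and -4.05 in ESC, not well above background, and at -0.84 and -1.30 in NPC. At this scaling it was at least 5.3-fold higher in NPC (limma adjusted p = 0.0173). Its change was 0.94 with normexp and 1.04 with the authors' deposited values, both below that bound. Probe Ch_844759_0028548, at 28494401, was at the floor in ESC and at -2.97 and -3.61 in NPC, at least 1.14-fold higher. The probe between them, Ch_844759_0028547, was at -2.56 in NPC 1 and at the floor in NPC 2, and was not called (adjusted p = 0.797). The next one, Ch_844759_0028549, was at 0.58 and 0.26 in ESC and 0.60 and 0.64 in NPC, with no call. Probe Ch_844759_0028631, at 28501088, was at -4.13 and -4.33 in ESC and -2.42 and -2.12 in NPC, at least 2.31-fold higher. The change of Ch_844759_0028631 was also below its bound with normexp (0.28) and with the authors' values (0.62). The calls of Ch_844759_0028548 and Ch_844759_0028631 were each lost in 7 of 17 alternatives and that of Ch_844759_0028546 in 2. With the authors' deposited values 0 probes of the region were called higher.

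**Figure D4:**
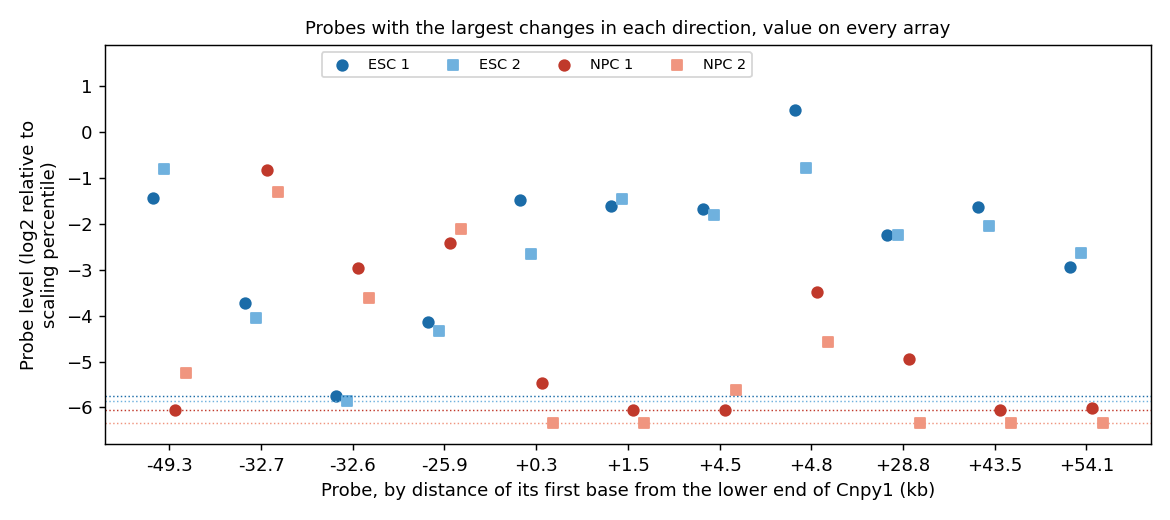
Level of the 8 lower and 3 higher probes with the largest changes (log2 relative to the scaling percentile) on each array, ordered by distance of the probe from the 3′ end of Cnpy1; dotted lines mark the floor of each array. The 3 higher probes lie at -32.7, -32.6 and -25.9 kb, a minus sign meaning beyond that end, and 7 of the 8 lower probes have at least 1 NPC value at the floor.

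Bright probes lay in several places, and 3 were among the 5 highest in both groups. Probe Ch_844759_0029049, at 28536801 in the last 1 kb window before the edge, was at 3.34 and 3.33 in ESC and 2.78 and 3.41 in NPC, and the groups overlapped. Probe Ch_844759_0028507, at 28490820, was at 3.87 and 3.76 in ESC and 2.60 and 3.55 in NPC, and probe Ch_844759_0029565, at 28588883, at 2.93 and 3.15 in ESC and 2.77 and 3.12 in NPC. None of the 3 was called (limma adjusted p from 0.408 to 0.854). Probe Ch_844759_0028445, at 28485749, also among the 5 highest in ESC, was at 3.27 and 3.04 in ESC and 1.34 and 2.56 in NPC and was not called either (adjusted p = 0.285). Matches of these sequences elsewhere in the genome were not examined.

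The order of levels along the region was alike on all arrays. Across the 34 windows Pearson's r was 0.987 between the ESC arrays, 0.889 between the NPC arrays and between 0.776 and 0.966 across groups, the lowest being that of ESC 1 and NPC 2. The arrays share their probes and slide, and the coefficients describe the profile only. In the rest of the tile the NPC arrays had an r of 0.941.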

How the data were processed

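All 4 samples were read in Cy3 alone on custom tiling arrays of 1 slide. Spot intensity is as deposited: per the file headers, Feature Extraction 11.5.1.1 subtracted background and set low values to a floor, with no step between arrays, and the array design places the probes on mm9. The submitters' processing notes name limma, with no step stated. Their marks for spots well above background, saturated or outlying (unit other) come from the same program, per the file headers. The deposited series table holds the authors' values, whose range fits a log2 scale; its normalization is not given in the sources used here, and it served as an alternative. Controls (3188 spots) and outlier spots on the array concerned were left out.

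Log2 intensity was scaled to the 75th percentile of each array over the 15356 probes with the mark on every array, since 48.9% of all values passed that mark. Windows of 5 kb with at least 5 probes, single probes with a value on all arrays and stretches were fitted with limma 3.58.1 in R 4.3.3 (lmFit, eBayes, group as the term), with Benjamini-Hochberg adjustment over all features of the array and a threshold of 0.05. The number of arrays limits the precision. On simulated data, 72% of windows changed by 1 log2 unit and 89% of those changed by 2 were recovered. Of the unchanged among 964, 9 were called. The simulation changed 100 windows at each size, in either direction, and shifted no whole array. These figures therefore do not cover the choice of scaling. Single probes were recovered at 0% at either size, but just 100 of 47900 were changed at each. In the data 1.58% were called lower and 10.8% higher, so this 0% does not measure the recovery of single probe calls here. Those calls are still taken as the least certain. For normexp (offset 50) the median spot and background signals were used, because mean signals are not in the columns. The alternatives were other scalings, floors, window rules, the replicate block and leaving out each array. Named windows were the 10 called ones with the largest change, the 5 highest in each group, those at the stated Cnpy1 ends, and the first and last; named probes were the 8 lower and 5 higher calls with the largest change that were above background on both arrays of a group. Windows of 1 kb with at least 3 probes and the pair of windows with the smallest changes were chosen after seeing the data. The members and rules were chosen with earlier results of these data known. Sequences and gene order come from RefSeq tables on GRCm38, whose coordinates were not matched to probes. Figures were drawn with matplotlib 3.10.9.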

Additional observations from a re-analysis of the deposited data

How the results depend on the processing

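The stretch at the 3′ end of Cnpy1 stayed lower in NPC in every alternative run, from -1.76 to -0.91 with an array left out and from -1.73 to -0.62 otherwise, and it lost its call (limma, adjusted p 0.0584) at -1.12 with chromosome 12 probes kept out of the percentile, and without ESC 1, at -1.19. Lower windows of the region numbered 33 with either the all-probe percentile or the median over windows, 0 without the chromosome 12 tile, 1 with the median deviation of SRN spots, 2 with their array medians, 9 with a common floor, 11 with the median over probes, 0 when centred on the region's own windows (2 at an unadjusted p under 0.05), and 0 to 26 with an array left out. Over the array, 622 of 964 windows were called lower with the all-probe percentile and 540 with the median over windows. That array count was 68 with the SRN deviation, 45 with the SRN medians, 64 without the chromosome 12 tile and 124 with a common floor. With the main scaling it was 284, so the region's counts moved with those of the array. Array counts are not given for the other settings of this list. Higher windows of the region numbered 0 throughout, also at an unadjusted p under 0.05 except 1 when centred on the region. Lower probes numbered 56 with the percentile over all probes and 28 to 191 with an array left out. Higher probes numbered 1 with normexp, 6 with the SRN deviation, 7 with the SRN medians and 0 with the authors' values. They numbered 5 with dim probes left out, 7 when centred on the region and 1 with the trend prior. With an array left out this number also moved in both directions, and counts over the array were not taken for these probe settings. The mean change of the region was -0.23 with normexp, -0.99 with the all-probe percentile, -0.38 without the chromosome 12 tile, -0.80 with the median over windows, -0.31 with the SRN deviation, -0.074 with the SRN medians, -0.46 with a common floor, -0.75 with the median over probes, and -0.68 to -0.51 with an array left out. Relative to the rest of the tile, the segments before, in and after Cnpy1 ranged from -0.07 to 0.12, -0.38 to -0.14 and -0.05 to 0.11 with an array left out, and the first was 0.16 with the median over probes.

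The windows from 28490001 and 28495001 turned to 0.015 and 0.19 with chromosome 12 left out of the scaling, 0.082 and 0.25 with the SRN deviation, 0.32 and 0.49 with the SRN medians, and 0.31 and 0.48 when centred on the region. The second was also at 0.023 with a common floor, 0.039 without NPC 1 (-0.10 without NPC 2) and 0.22 with the median over probes. The first was called lower in 3 alternatives, at -0.59, -0.41 and -0.49. Of 265 values of named windows under the alternatives, 177 kept direction and side of the threshold, 70 lost the call, 7 gained it and 11 turned. Of 187 values of named probes, 160 kept both and 27 lost the call. The median change of all windows was -0.34 and ranged from -0.73 to 0.19 over the scalings. With the replicate block, 11 windows and 17 probes of the region were called lower and 1 probe higher, and the stretch kept its call. The deviations of same-numbered arrays correlated at 0.047 over all windows and at 0.46 over the 34 of the region; with 2 pairs and no label that ties them, the numbers were not taken to pair the arrays. The cause of these differences was not tested. Signal near the floor limits what can be said of probes not well above background. Window sizes of 2 kb and 10 kb gave 25 of 85 and 16 of 18 windows lower. The share called over the array was not taken at these sizes or with the replicate block. At 5 kb it was 29.5%, with 111 of 227 lower in the rest of the tile, so these counts are not read as a trait of the region.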
